A study of Mus musculus with 6 samples.

Results

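Histone genes that encode the linker histone H1 and the core histones H2A, H2B, H3 and H4 were followed in tongue tissue of 6 mice on single-colour Agilent arrays. The members were all probes whose transcript accession leads, through a RefSeq gene table, to a symbol of the H1f, H2ac, H2bc, H3c or H4c families. The table held 68 such genes, and 43 of them had a probe, 47 probes in all, out of 21368 gene symbols on the array. All 6 animals were C57Bl6 mice of the iDek genotype, in which Dek, a chromatin protein gene, can be induced by doxycycline (DOX), an antibiotic used to switch transgenes. The labels call the genotype both ubiquitous and squamous cell-specific, and they give no age. The tested animals were 3 mice given DOX for 2 weeks, set against 3 mice of the same genotype given no DOX. The series title speaks of a carcinogen, and the labels of these samples name none. No mice without the transgene were analysed here, so DOX and Dek induction cannot be told apart.

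In the cell cycle, bulk histones are made during S phase, when new DNA must be packaged. Core histones H2A, H2B, H3 and H4 form the nucleosome, and H1 binds the linker DNA between nucleosomes. Mammalian replication-dependent histone genes lie in clusters, have no introns, and give mRNAs that end in a stem-loop in place of a poly(A) tail. The stem-loop is bound by Slbp, which governs their processing and stability. A few members are not of this kind: H1f0 and H1f10 encode linker histones that are also made outside S phase, H1f6, H1f7, H2ac1 and H2bc1 are known from the testis, and H1f8 from the oocyte. In continually renewing epithelia such as that of the tongue, dividing cells lie in the basal layers.

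What the probes could read is limited in 2 ways. The labels name the Low Input Quick Amp kit and do not say which primer was used. As a rule the kit primes from poly(A) tails, so that stem-loop mRNAs without a tail may be read poorly. Probes of H2A genes nevertheless had the highest signals of the members. How much of each signal comes from tailed copies was not measured. Histone genes of a class are also close copies of each other, so a probe may bind the mRNA of several, and the values of single H2A and H4 genes in particular are uncertain. Values are log2 of the processed signal minus the 75th percentile of the array, called normalised log2 signal here, and levels of different probes cannot be set against each other. The test took in a gene if the scanner software placed one of its probes well above background on every array of either group of 3. Of the members 39 met this filter, and 37 of them were well above background on all 6 arrays. H1f6 was not on DOX replicate 3, and H3c1 was not on no DOX replicate 2.

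Dek itself was at 2.41, 2.41 and 2.27 in the DOX mice, against 2.30, 2.10 and 2.20 in the mice without DOX, and the groups overlapped. The log2 difference was 0.17 ± 0.11 (SE, n = 3 and 3), short of the threshold (limma, adjusted p = 0.456). The sources used here do not say which part of Dek the probe reads.

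Most tested histone genes had a higher mean signal with DOX. This held for 33 of 39 members, or 84.6%, while 49.0% of all 26256 genes and unnamed probes tested had a higher mean. The median log2 difference over the tested members was 0.41 (interquartile range 0.09 to 0.69), beside a median of -0.01 (interquartile range -0.19 to 0.17) over everything tested. With normexp background correction the members' median was 0.27. Only 1 member passed an adjusted p of 0.05 over all probes (limma), and it fell: H2bc23. Which members were called depended on the processing: with normexp or a mean-variance trend 4 rose and 0 fell, and with array weights 5 rose and 1 fell. Among everything tested 0.404% passed, 0.278% upward and 0.126% downward. In 16 members every DOX value lay above every value without DOX, which is 41% of those tested, where the whole table had 12.7%. In 1 member every DOX value lay below, which is 2.56%, where the whole table had 12.6%. At an unadjusted p of 0.05, 17 members were higher and 1 was lower, beside 9.05% and 9.58% of the whole table. In bulk tissue more cells of a type and more RNA per cell cannot be told apart.

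**Figure D1:**
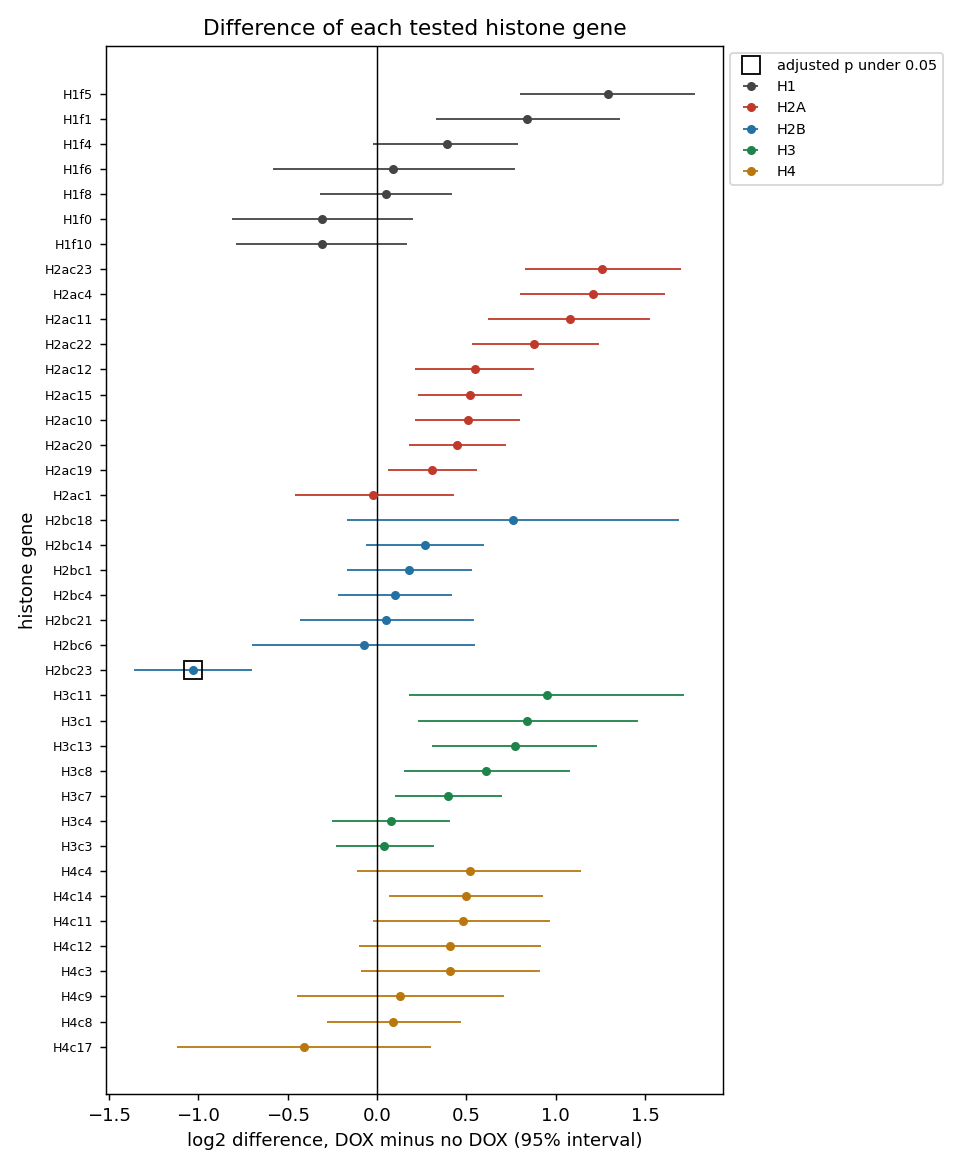
Log2 difference (DOX minus no DOX, x axis) of the 39 tested histone genes (y axis), in colours by class, with 95% intervals from the moderated fit (n = 3 and 3). The box marks H2bc23 at -1.03, the 1 gene past an adjusted p of 0.05. The points of the H2A genes other than H2ac1 and of all H3 genes lie right of 0.

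The linker histone genes did not all have the same sign. The replication-dependent H1f5 stood at 2.08, 2.23 and 1.60 in the DOX mice, against 0.57, 0.52 and 0.96 in the mice without DOX. The groups were well apart, although DOX replicate 3 was the lowest of its group and no DOX replicate 3 the highest of its own. H1f5 was 2.45-fold higher (log2 1.29 ± 0.20, SE, n = 3 and 3, 95% interval of the fold 1.75 to 3.43), without passing the test (limma, adjusted p = 0.0665). H1f1, also of the replication-dependent kind, was at -1.36, -1.05 and -1.73 with DOX, against -2.45, -2.29 and -1.93 without it. Those groups did not overlap, and the log2 difference was 0.84 ± 0.21 (adjusted p = 0.130). H1f4, a widely expressed linker histone gene, differed by 0.39 ± 0.17 with overlapping groups. The linker histone genes also made outside S phase had lower means with DOX, with overlapping groups and intervals that hold 0. H1f0 differed by -0.31 ± 0.21 (95% interval -0.81 to 0.20, limma, adjusted p = 0.485). H1f10 differed by -0.31 ± 0.20 (95% interval -0.79 to 0.17, limma, adjusted p = 0.451). The germ cell forms were near 0, H1f6 at 0.09 ± 0.28 and H1f8 at 0.05 ± 0.15. Of 7 tested H1 genes, 5 were higher and 2 lower, with a median of 0.09. That median was 0.32 without no DOX replicate 3 and 0.32 without DOX replicate 3.

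Promoter windows are shown for the linker histone gene H1f5 and the core histone gene H2ac4, whose differences were among the largest of their classes. They are from RefSeq on GRCm38.p6, cover 250 bases before the start of the gene, and are written 5′ to 3′ on the strand of the gene. Capitals mark CCAAT (a box bound by NF-Y), TATAAA (the TATA box) and ATTTGCAT (the octamer bound by Pou2f1), read on both strands.
H1f5, chr13:21780626-21780875, minus strand: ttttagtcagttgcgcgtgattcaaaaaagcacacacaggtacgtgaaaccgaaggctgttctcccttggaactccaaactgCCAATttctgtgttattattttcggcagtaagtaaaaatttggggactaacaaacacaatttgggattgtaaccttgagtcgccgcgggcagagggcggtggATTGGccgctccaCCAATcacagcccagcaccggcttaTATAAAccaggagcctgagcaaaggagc
H2ac4, chr13:23750838-23751087, plus strand: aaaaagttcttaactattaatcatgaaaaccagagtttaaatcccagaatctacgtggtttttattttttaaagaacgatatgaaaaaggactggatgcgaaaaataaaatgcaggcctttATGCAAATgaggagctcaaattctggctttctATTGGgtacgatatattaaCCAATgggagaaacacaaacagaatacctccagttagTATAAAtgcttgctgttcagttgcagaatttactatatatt
Both windows hold CCAAT and a TATAAA close to the start, and that of H2ac4 holds the octamer on its opposite strand. The table had 39 windows for 38 of the 43 members. CCAAT was present in 79.5% of these windows, beside 33.8% of all 32851 promoter windows. TATAAA was in 43.6% of the members' windows and in 12.4% of all. The octamer was in 23.1% and in 1.6%, and among the members it was found in 5 of 8 H2B windows and 4 of 11 H2A windows, and in 0 of 8 H1, 0 of 5 H3 and 0 of 7 H4 windows. CCAAT was in all 11 H2A, 8 H2B and 5 H3 windows, in 5 of 8 H1 windows and in 2 of 7 H4 windows. The windows are not all independent. Those of H2ac1 and H2bc1 overlap by 220 bases and share the same octamer, which is counted in both classes. Matches in other overlapping windows are likewise counted for both genes, and the 8 H2B windows came from 7 genes. These matches describe letters in a window and are not binding sites.

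Among the H2A genes 9 of 10 had separate groups, all of these higher with DOX, where the whole table had 12.7%. H2ac4 stood at 4.47, 4.40 and 4.25 in the DOX mice, against 3.32, 2.82 and 3.35 in the mice without DOX. The gap between the groups exceeded the spread within either. H2ac4 was 2.31-fold higher (log2 1.21 ± 0.17, SE, n = 3 and 3, 95% interval of the fold 1.75 to 3.05) and did not pass over all probes (limma, adjusted p = 0.0522). H2ac23 was at 7.27, 7.44 and 6.95 with DOX, against 5.84, 5.79 and 6.24 without it. It was 2.40-fold higher (log2 1.26 ± 0.18, adjusted p = 0.0565), again with separate groups. H2ac11 was at 7.48, 7.61 and 7.08 with DOX, against 6.30, 6.08 and 6.57 without it, a log2 difference of 1.08 ± 0.19 (adjusted p = 0.0777). H2ac22 was at 7.06, 7.15 and 6.76 with DOX, against 6.04, 5.99 and 6.29 without it, a log2 difference of 0.88 ± 0.15 (adjusted p = 0.0732). In all 3 of these genes DOX replicate 3 was the lowest of its group and no DOX replicate 3 the highest of the other.

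Another 5 H2A genes had smaller differences. They were read by the brightest probes of the class, with means without DOX of 7.22 to 7.53. Those of H2ac4, H2ac23, H2ac22 and H2ac11 were 3.17 to 6.32. Whether the size of a difference depends on the brightness of the probe was not tested. These were H2ac12 (0.55 ± 0.14), H2ac15 (0.52 ± 0.12), H2ac10 (0.51 ± 0.12), H2ac20 (0.45 ± 0.11) and H2ac19 (0.31 ± 0.10), with adjusted p between 0.113 and 0.197 (limma). In each of the 5 every DOX value lay above every value without DOX. H2ac15 had a dimmer probe as well, which gave 0.97 ± 0.18. The testis gene H2ac1 was the exception of the class at -0.02 ± 0.19. Of 10 tested H2A genes, 9 were higher, 9 had separate groups and 0 passed over all probes (limma, 9 at an unadjusted p of 0.05). Their median was 0.53. Over the 6 arrays the tested H2A probes moved closely together, with a median Pearson correlation of 0.96 over 45 pairs. Group means were not removed, so the difference between DOX and no DOX is part of this correlation. It describes probes that share arrays and may share targets.

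**Figure D2:**
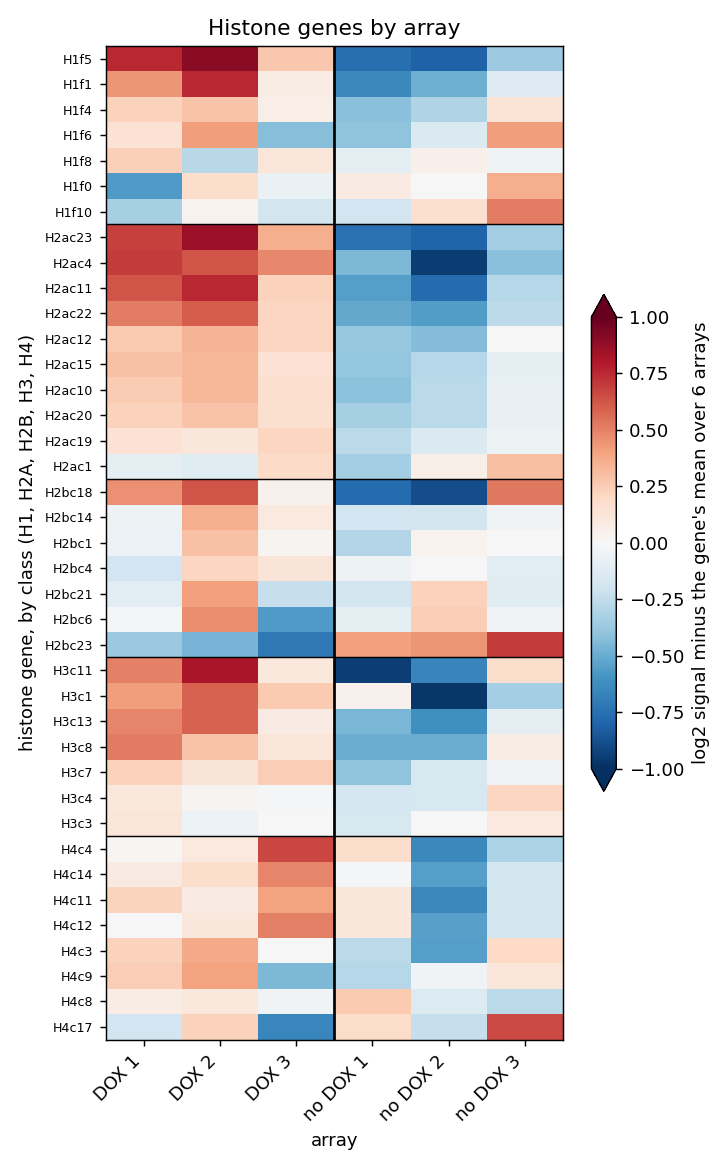
Normalised log2 signal of the 39 tested histone genes (rows, by class) on each array (columns, DOX left), relative to the gene's own mean over the 6 arrays. Colours saturate at 1 in either direction. The H2A rows other than H2ac1 are red in all DOX columns, and a set of H4 rows has its deepest red in DOX 3.

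The H2B genes did not follow H2A. H2bc23 (Hist1h2bq in the older naming) was at -3.87, -3.96 and -4.21 in the DOX mice, against -3.09, -3.06 and -2.80 in the mice without DOX. All DOX values lay below all values without DOX, and all 6 arrays were well above background. H2bc23 fell 2.04-fold (log2 -1.03 ± 0.14, SE, n = 3 and 3, 95% interval -1.36 to -0.70, limma, adjusted p = 0.0484). The signal was dim, and with normexp background correction the difference was -0.33 (adjusted p = 0.107). The direction was the same in all 16 alternatives run, while the call was kept in 4 of them and lost in 12, including every fit that left out 1 array (adjusted p 0.0773 to 0.167).

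The other 6 tested H2B genes had overlapping groups. H2bc18 was at 1.10, 1.27 and 0.69 with DOX, against -0.13, -0.24 and 1.17 without it, so that no DOX replicate 3 sat among the DOX values. Its difference of 0.76 ± 0.39 did not pass (adjusted p = 0.349). The remaining 5 were H2bc14 (0.27 ± 0.14), the testis gene H2bc1 (0.18 ± 0.15), H2bc4 (0.10 ± 0.13), H2bc21 (0.05 ± 0.20) and H2bc6 (-0.07 ± 0.26). Of 7 tested H2B genes, 5 were higher, 2 lower and 1 fell, with a median of 0.10. No H2B gene had every DOX value above every value without DOX, beside 9 of 10 H2A genes and 12.7% of the whole table. The difference between the classes was not tested.

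H2bc23 and H2ac23 are neighbours that point away from each other, with 167 bases between their starts. The stretch between them is shown because the genes on its sides had opposite signs, -1.03 for H2bc23 and 1.26 for H2ac23. It is written on the plus strand of GRCm38.p6 (RefSeq), with CCAAT on either strand in capitals.
H2bc23-H2ac23, chr13:21810200-21810366: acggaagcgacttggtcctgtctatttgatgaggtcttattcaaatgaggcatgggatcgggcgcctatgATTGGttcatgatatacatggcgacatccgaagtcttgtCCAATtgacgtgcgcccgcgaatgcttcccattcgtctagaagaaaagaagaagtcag
It holds CCAAT 2 times, once on each strand, and neither TATAAA nor the octamer. A further CCAAT in the window of H2bc23 lies directly outside the stretch, just past the annotated start of H2ac23. Of 2 further pairs of members on opposite strands with overlapping windows, the testis pair H2ac1 and H2bc1 was at -0.02 and 0.18. In the other pair H2ac22 was at 0.88, and H2bc22 was not tested.

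**Figure D3:**
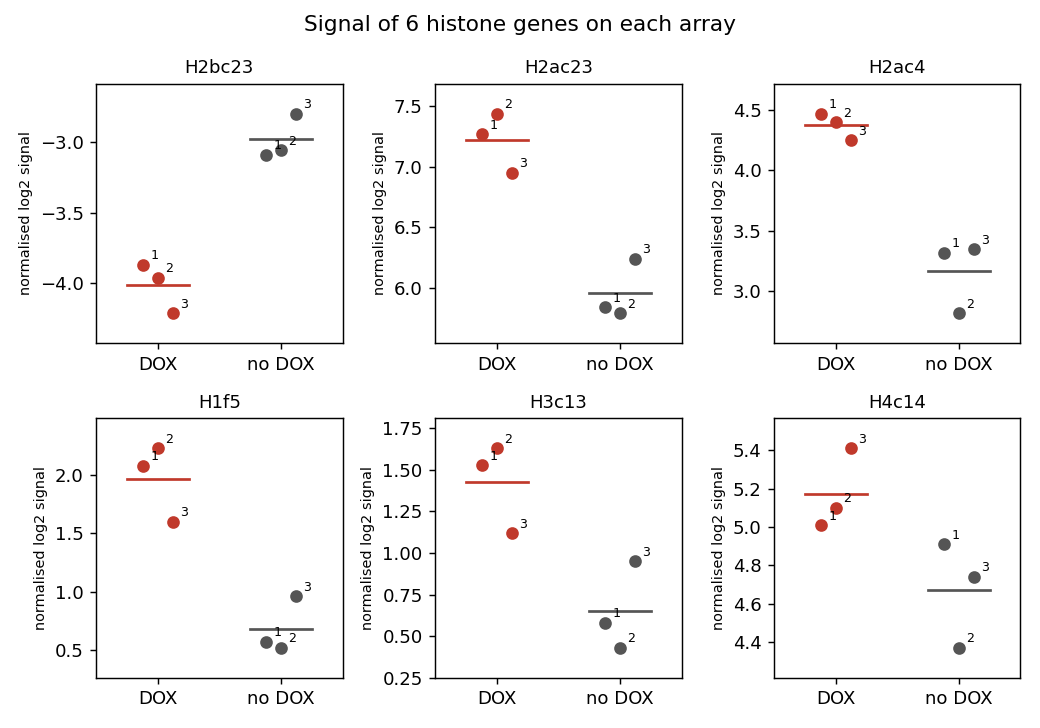
Normalised log2 signal of 6 histone genes (1 panel each) on each array, DOX left and no DOX right; points carry the replicate number and lines are group means (n = 3 each). H2bc23 is lower with DOX, and H2ac23, H2ac4, H1f5, H3c13 and H4c14 are higher. The panels show only genes whose groups do not overlap, and they do not stand for their classes. H2bc23 is the only one of 7 tested H2B genes with separate groups, and H4c14 the only one of 8 tested H4 genes. The y axes differ and do not start at 0.

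All 7 tested H3 genes had a higher mean with DOX, and 0 passed over all probes (limma, 5 at an unadjusted p of 0.05). H3c13 was at 1.53, 1.63 and 1.12 in the DOX mice, against 0.58, 0.43 and 0.95 in the mice without DOX. It was 1.71-fold higher (log2 0.77 ± 0.19, SE, n = 3 and 3, adjusted p = 0.127), with no overlap. H3c11 was at -1.26, -0.95 and -1.66 with DOX, against -2.71, -2.43 and -1.59 without it, where the third arrays of the groups overlapped. Its difference was 0.95 ± 0.32 (adjusted p = 0.196). H3c1 (0.84 ± 0.26), H3c8 (0.61 ± 0.20) and H3c7 (0.40 ± 0.13) had separate groups. H3c1 was well above background on 3 DOX arrays and 2 arrays without DOX, so it entered the test only through the DOX mice. The dim H3c8 was separate by a small margin, with DOX replicate 3 at -3.21 and no DOX replicate 3 at -3.26. H3c4 (0.08 ± 0.14) and H3c3 (0.04 ± 0.12) were close to 0. The class median was 0.61, and 0.21 with normexp background correction, under which H3c1 was at 0.14 and H3c8 at 0.21.

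The H4 genes were higher by less and differed in their order of arrays. H4c14 was at 5.01, 5.10 and 5.41 in the DOX mice, against 4.91, 4.37 and 4.74 in the mice without DOX. The groups were separate by a small margin, and the log2 difference was 0.50 ± 0.18 (adjusted p = 0.219). Its second probe was too dim to be tested. H4c4 was at 6.06, 6.14 and 6.71 with DOX, against 6.22, 5.40 and 5.73 without it, and no DOX replicate 1 lay inside the DOX range. Its difference was 0.52 ± 0.26 (adjusted p = 0.339), and its second probe gave 0.47 ± 0.27. H4c11 (0.48 ± 0.21) and H4c12 (0.41 ± 0.21, second probe 0.43 ± 0.20) had overlapping groups. In H4c14, H4c4, H4c11 and H4c12 DOX replicate 3 was the highest DOX array and no DOX replicate 1 the highest array without DOX, unlike in H2ac23, H2ac11 and H1f5. H4c3 was at 0.41 ± 0.21, H4c9 at 0.13 ± 0.24, H4c8 at 0.09 ± 0.16 and H4c17 at -0.41 ± 0.30. Of 8 tested H4 genes 7 were higher and 1 lower, with a median of 0.41. None passed over all probes (limma, 1 at an unadjusted p of 0.05). The H4 pairs correlated over the 6 arrays, with group means left in, with a median of 0.42, from -0.45 to 0.99.

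Of the 43 members with a probe 4 were not tested. H1f7 was dim throughout, with 0 arrays well above background. H2ac21 and H2bc22 were well above background on 2 DOX arrays and on 0 arrays without DOX. H2bc3 was well above background on 2 DOX arrays and 1 array without DOX. H2bc22 was at -2.67, -5.47 and -4.03 with DOX, against -4.99, -5.21 and -5.10 without it, so the DOX arrays alone spread widely. By the older names, 30 tested members belong to the Hist1 cluster, with a median of 0.41 and 26 higher. In the Hist2 cluster all 6 tested members were higher, with a median of 0.47. The 3 tested members outside both clusters, H1f0, H1f8 and H1f10, had a median of -0.31.

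Within groups, the arrays kept an order in most members. DOX replicate 2 was the highest DOX array in 26 of 39 members and DOX replicate 3 the lowest in 25. No DOX replicate 3 was the highest array without DOX in 28 members and the lowest in 2. With each gene set to its own mean, the median over the histone genes was 0.22, 0.30 and 0.12 on DOX replicates 1 to 3, against -0.28, -0.27 and -0.04 on no DOX replicates 1 to 3. No DOX replicate 3 thus lay nearest to the DOX arrays.

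Genes that cells use beside histones in S phase and in mitosis were read on the same arrays. Of 20 replication genes tested 11 rose, where the whole table had 0.278%. A higher mean was seen in 19, beside 49.0% of the whole table, and the median was 0.89. The calls were not stable: of 14 called over the 5 lists of genes beside the members, the count was 0 with no filter on dim probes. Leaving out DOX replicate 1, 2 or 3 gave 1, 6 or 3 calls, and leaving out no DOX replicate 1, 2 or 3 gave 0, 0 or 1. Among them Mcm5, a subunit of the replicative helicase, rose by a log2 difference of 1.89 ± 0.13 (SE, n = 3 and 3, limma, adjusted p = 0.0111). The other subunits of that helicase among the 8 smallest p were Mcm3 (1.65 ± 0.15), Mcm6 (1.45 ± 0.13), Mcm4 (1.24 ± 0.12) and Mcm2 (1.36 ± 0.14). Pole, a DNA polymerase gene, rose by 1.30 ± 0.10, the ribonucleotide reductase gene Rrm2 by 1.58 ± 0.13 and Gins2, of the GINS complex at the fork, by 1.02 ± 0.12 (adjusted p 0.0151 to 0.0327 for these 7). Their list medians were 0.46, 0.42 and 0.43 on the DOX arrays, against -0.39, -0.47 and -0.36 on the arrays without DOX, a flat pattern within groups. Of 18 mitosis genes tested 0 passed (limma, Benjamini-Hochberg), 8 were higher and 10 lower, and the median was -0.08. The 4 with the smallest p were split in sign: the checkpoint kinase gene Bub1 was at 0.68 ± 0.20 and the mitotic kinase gene Cdk1 at 0.61 ± 0.24, while the kinesin gene Cenpe was at -0.68 ± 0.23 and the cyclin gene Ccnb2 at -0.60 ± 0.26 (adjusted p 0.158 to 0.280). The mitosis medians were 0.11, 0.19 and -0.45 with DOX, against -0.07, -0.21 and 0.42 without it. The median over all histone genes was likewise lowest of the DOX arrays on replicate 3 and highest of the others on no DOX replicate 3, which did not hold for every class. The H4 median was highest on DOX replicate 3 (0.20), and the H2B median was lowest of the DOX arrays on replicate 1 (-0.06). The H1, H2B and H4 medians overlapped between groups, and those of H2A and H3 did not.

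**Figure D4:**
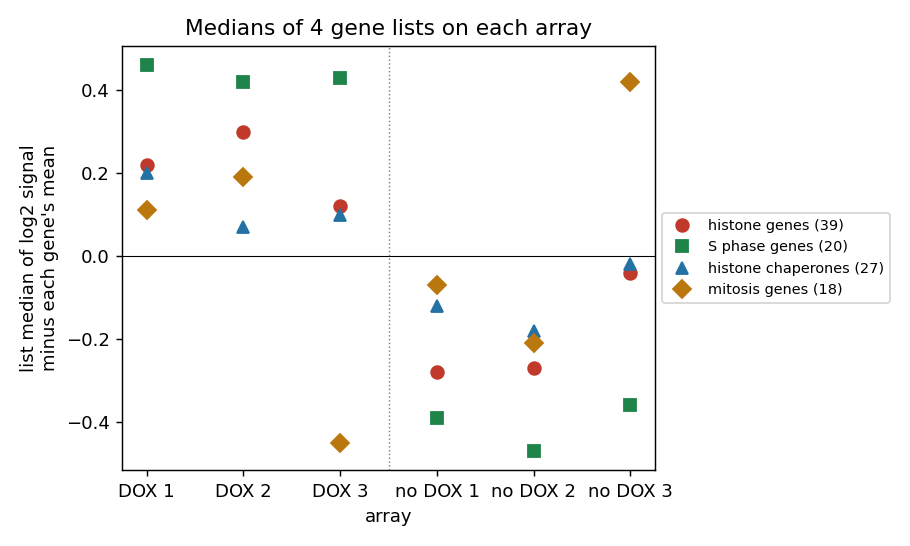
Median over each of 4 gene lists (symbols) of log2 signal minus the gene's mean over the 6 arrays (y axis), by array (x axis, DOX left). S phase genes form 2 flat levels, mitosis genes are lowest on DOX 3 and highest on no DOX 3, and histone genes lie between 0.12 and 0.30 on the DOX arrays and between -0.28 and -0.04 on the others.

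Among genes that supply histone mRNA, 1 of 22 tested rose and 0 fell, with 15 higher and a median of 0.14. The one that rose was E2f1, an activator of S phase genes, at -0.07, -0.23 and -0.10 with DOX, against -1.27, -1.45 and -1.32 without it (2.32-fold, log2 1.21 ± 0.11, adjusted p = 0.0166). Slbp, whose product binds the histone stem-loop, was 1.66-fold higher without passing (log2 0.73 ± 0.12, adjusted p = 0.0669, second probe 0.57). Its groups did not overlap. Ccne1, the cyclin E gene whose kinase acts on Npat, was higher by 0.98 ± 0.15 (adjusted p = 0.0629). Nfya, a subunit of the CCAAT-binding factor NF-Y, was higher by 0.68 ± 0.11 (adjusted p = 0.0719), while the other subunits Nfyb (0.21 ± 0.13) and Nfyc (0.08 ± 0.09) had overlapping groups. Pou2f1, the octamer-binding factor, was lower at a log2 difference of -0.75 ± 0.13 (adjusted p = 0.0792), with another probe at -0.14. The histone gene activator Npat itself reached well above background on 0 arrays.

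Among chaperones and carriers of histones 2 of 27 rose and 0 fell, with 22 higher and a median of 0.22. The whole table had 0.278% risen and 49.0% with a higher mean. Chaf1b, a subunit of the CAF-1 complex that deposits H3 and H4 behind the fork, was at 2.41, 2.13 and 2.27 with DOX, against 0.98, 0.77 and 0.89 without it. It rose 2.62-fold (log2 1.39 ± 0.12, adjusted p = 0.0161, second probe 1.31). Tonsl, which binds newly deposited H4, averaged 0.25 ± 0.18 with DOX and -1.02 ± 0.21 without it (SD, n = 3 each), and rose 2.41-fold (log2 1.27 ± 0.15, SE, limma, adjusted p = 0.0406). The groups were far apart in both genes. Dnajc9 (0.68 ± 0.09, adjusted p = 0.0522) and Asf1b (1.20 ± 0.17, adjusted p = 0.0533), also histone chaperones of dividing cells, did not pass.

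Replacement and variant histones outside the member families showed no common direction. Of 10 tested, 6 were higher, 4 lower and 0 passed (limma, Benjamini-Hochberg), with a median of 0.05. The 4 with the smallest p, Cenpa, H2az1, H2az2 and H2ax, differed in sign. The centromeric H3 variant Cenpa was at -0.09, 0.20 and -0.66 with DOX, against 0.46, 0.43 and 1.09 without it (-0.84 ± 0.27, adjusted p = 0.187). The H2A.Z genes went opposite ways, H2az1 at 0.36 ± 0.12 (second probe 0.37) and H2az2 at -0.36 ± 0.12, where a second probe gave -0.09 (limma, adjusted p = 0.194 and 0.200). H2ax, the variant phosphorylated at DNA breaks, was at 0.40 ± 0.17. The H3.3 genes H3f3a (0.03 ± 0.12) and H3f3b (-0.03 ± 0.13) were close to 0.

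Marker genes of the cell types that tongue can hold were read on the same arrays, and their part in the histone values was not tested. All 7 keratinocyte and all 7 muscle markers were well above background on all 6 arrays, and 0 of either list passed (limma, Benjamini-Hochberg). The summed signal of the keratinocyte markers, in multiples of the 75th percentile, was 1420 to 1660 with DOX, against 1360 to 1730 without it, and that of the muscle markers was 1530 to 2000, against 1450 to 1990. Sums of this kind, here and below, weight the probes with the highest signal most. The lists' medians of the log2 difference were -0.15 and 0.12.

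Of the 10 marker lists the lingual gland markers had the highest median, 2.55, and 0 of 5 passed (limma). Every DOX value lay above every value without DOX in 4 of the 5, where the whole table had 12.7%: Bpifa2 (6.51 ± 1.64), Car6 (4.16 ± 0.96), Lpo (2.55 ± 0.46) and Bhlha15 (1.82 ± 0.28). The fifth, Dcpp1, was fully lower, at 6.73, 7.06 and 6.83 with DOX, against 8.26, 7.52 and 7.11 without it (-0.76 ± 0.29). The sum over the list was 270.0 to 596 with DOX, against 162 to 315 without it. It mostly follows the probe with the highest signal, which was Bpifa2 on the DOX arrays and Dcpp1 on the others.

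Of the immune lists, all 4 macrophage markers had a higher mean, with separate groups in Lyz2 (1.03 ± 0.17, adjusted p = 0.0704), and their sum was 13.8 to 17.6 with DOX, against 13.4 to 14.1 without it. The plasma cell marker Mzb1 was at 0.59 ± 0.17 with separate groups, and the B cell markers Cd79a and Ms4a1 were well above background on 0 arrays. The sum of the B and plasma cell list was 0.254 to 0.542, against 0.227 to 0.438. Of 5 T and NK cell markers 1 was higher and 4 lower. Cd8a was called lower (limma, adjusted p = 0.0241), with 0 DOX arrays well above background. It entered the test only through the mice without DOX, so the size of its difference is uncertain. Cd4 was at 0.31 ± 0.13, Cd3e at -0.04 ± 0.10, Cd3g at -0.39 ± 0.24 and Nkg7 at -0.14 ± 0.10 (second probe -1.14). The sum of the T and NK cell list was 10.4 to 11.3 with DOX, against 10.1 to 11.0 without it. Of 4 fibroblast markers 3 were lower, Col3a1 at -1.19 ± 0.29 with separate groups, and the sum was 102 to 156, against 114 to 132. Of 5 testis germ cell markers Ddx4, Prm1 and Dazl were well above background on 0 arrays and Sycp3 and Tnp1 on all 6. Their summed level was 0.247 to 0.295 with DOX, against 0.188 to 0.29 without it, and the testis histone genes H2ac1 and H2bc1 were well above background on all 6 arrays.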

How the data were processed

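RNA of 6 tongues was labelled with Cy3 and hybridised to 1-colour Agilent arrays, 1 array per mouse, per the labels' protocols. In the deposited scanner files the processed signal is a linear intensity from which Agilent's software (Feature Extraction, version 11.5.1.1 in the submitters' processing notes) had taken the background. The authors' value table is the same signal times 1 factor per array (3.70 to 3.99) by a rule that the sources used here do not give; it is a linear intensity, and its column medians were 90.01, 97.5 and 93.7 for DOX replicates 1 to 3 and 102.5, 94.2 and 92.7 for no DOX replicates 1 to 3. The deposited flags for outlier spots, saturation and signal well above background were used as other values, as the authors' software wrote them. All arrays shared 1 slide and 1 scan. Groups came from the treatment label and replicate numbers from the titles, and p-values measure the spread between these mice.

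Each array had 59305 non-control spots for 55681 probes; 146 to 195 outlier spots were left out, 0 were saturated, and 56.0% to 58.3% of probes were well above background. Log2 signals were averaged per probe, and the 75th percentile (245.6 to 263.8 in linear signal) was subtracted. Accessions matched 1 symbol for 28331 probes and none for 27350 (RefSeq, GRCm38.p6). The 30934 probes that passed the filter came to 26256 genes and unnamed probes, where a gene with several was read by its brightest. They were fitted with limma 3.58.1 in R 4.3.3 (lmFit, eBayes, two-sided), with Benjamini-Hochberg adjustment over all tested probes. An exact permutation test of 3 against 3 arrays cannot go below 0.1 and was not used. The code of the fit was run on simulated arrays with independent noise for each probe. That setting differs from histone probes that move together, so it is no check of the histone results. The number of arrays limits the precision.

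The members and gene lists were chosen with earlier results of these data known. By rule, Dek, every tested member, and from each list of replication, mitosis and histone-handling genes all called genes (up to 8 by p) or else the 4 smallest p were named. Slbp, Ccne1, Nfya, Nfyb, Nfyc, Pou2f1, Npat, Dnajc9, Asf1b, H3f3a, H3f3b and the single cell type markers lie outside this rule and were chosen after their values were seen. The alternatives were normexp (offset 50, on the median signal, as the files used here hold no mean signal), quantile normalization, the authors' value table, other filters, a mean-variance trend, array weights, replicate number as a block, the mean over probes, the percentile over spots, and each array left out in turn.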

Additional observations from a re-analysis of the deposited data

How the results depend on the processing

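In 16 alternatives 27 of the 39 tested histone genes stayed higher with DOX and 4 stayed lower, and 8 took both signs. The number of members higher stayed within 1.5 times of 33 (30 to 35 when 1 array was left out). The count of called members (1, H2bc23) was 4 with normexp, 4 with a mean-variance trend, 6 with array weights and 2 with the filter on all 6 arrays. The members that rose there were H2ac4 in all 4 of these, H1f5, H2ac22 and H2ac23 in the first 3, and H2ac11 with array weights. It was 0 with quantile normalization, no filter on dim probes, the replicate block and the mean of all probes of a gene (limma, 17, 18, 18 and 18 members at an unadjusted p of 0.05). It was 0 without each array in turn (14 to 20 at an unadjusted p of 0.05). Fewer arrays were fitted there; the other causes were not tested. The whole table's 106 calls became 261 with normexp, 193 with the trend, 272 with array weights, 1 with no filter, 0 with the replicate block (limma, 4731 at an unadjusted p of 0.05) and 0 to 48 without 1 array. The 14 called genes of the 5 other lists became 23 with normexp, 0 with no filter, 0 with the replicate block and 0 to 6 without 1 array. With normexp the median of all members was 0.27 and that of H3 0.21; the H1 median was 0.02 to 0.32 without 1 array, the upper value without no DOX replicate 3 and also without DOX replicate 3. In 8 genes that passed in no alternative the sign turned with 1 array left out, over ranges of -0.09 to 0.32 for H1f6, -0.05 to 0.21 for H1f8, -0.19 to 0.13 for H2ac1, -0.14 to 0.18 for H2bc21 (also -0.02 with array weights), -0.33 to 0.19 for H2bc6, -0.03 to 0.10 for H3c3, -0.02 to 0.25 for H4c8 and -0.04 to 0.39 for H4c9. Same-numbered arrays correlated at -0.115, -0.009 and 0.010 in their deviations from the group means, and arrays of unlike number at -0.136 to 0.149. Deviations from a mean of 3 arrays depend on each other, so these values cannot decide whether replicate numbers paired the mice. Taking the 75th percentile over spots, chosen after seeing the data, left H2bc23 called (-1.04, adjusted p = 0.0461). Dim signals limit H2bc23, H3c1 and H3c8.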
